A study of Homo sapiens with 6 samples.

Results

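The cytosolic chaperone HSP90, 6 of its cochaperones and the mitochondrial chaperonin pair HSP60 and HSP10 were followed as the 10 genes HSP90AA1, HSP90AB1, STIP1, AHSA1, FKBP4, CHORDC1, CDC37, PTGES3, HSPD1 and HSPE1. They were taken by gene name from the authors' deposited table, which lists 7150 genes, and all 10 were found there. RNA had been sequenced from MDA-MB-231, an established human triple-negative breast cancer cell line with no introduced genetic change per the labels. There were 3 libraries from cells given shikonin, a plant naphthoquinone, at 0.5 µM for 24 h, and 3 control libraries labelled as untreated. The labels write the dose unit as a lower-case m, read here as molar, and no label says whether controls received a vehicle. Whether the 3 libraries of a group are separate cultures is not stated either, so the authors' p-values cover the spread between these libraries, which may be technical.

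HSP90 is a dimeric, ATP-driven chaperone that finishes the folding of kinases, steroid receptors and other client proteins handed over from HSP70. Cochaperones set the pace of its cycle, some by recruiting clients, others by speeding or slowing ATP hydrolysis. HSP60 forms a barrel in the mitochondrial matrix that folds imported proteins under a lid made of HSP10. Many of these genes are known targets of HSF1, the transcription factor that binds heat shock elements when unfolded protein accumulates.

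Every one of the 10 genes was higher in shikonin-treated cells, by 1.58-fold to 6.53-fold per the authors' deposited table. HSPE1, the gene of HSP10, rose most and CDC37, a kinase-specific cochaperone gene, rose least. The HSP90 genes and the other cochaperones lay between them, and HSPD1, the gene of HSP60, rose by less than HSPE1. The authors' deposited table holds only genes past an adjusted p of 0.05 and a 1.5-fold change in their DESeq2 test, and its adjusted p-values imply that about 14252 genes were tested. Of those, 25.5% were listed as higher. The median log2 fold change of the 10 genes was 1.16 per the authors' deposited table, against 0.60 over all 7150 listed genes and 1.22 over the 3630 listed as higher. A larger fold change than that median was found for 53.4% of the genes listed as higher per the authors' deposited table, so the typical size of these rises was near that of the genes that rose in general. At least 2-fold rises were seen in 6 of the 10 genes per the authors' deposited table, where 16.4% of all genes tested rose that far.

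**Figure D1:**
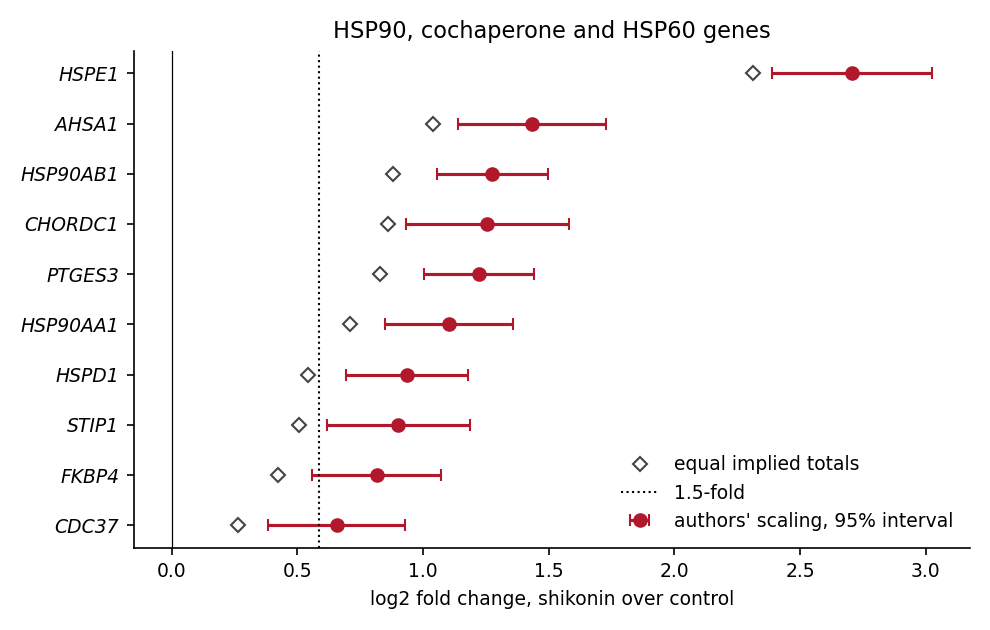
Log2 fold change of each gene, shikonin over control, with 95% intervals from the authors' standard error (circles) and after setting the implied totals of both groups equal (open diamonds); the dotted line marks 1.5-fold. HSPE1 stands apart at 2.71, the other 9 circles lie between 0.66 and 1.43, and 4 diamonds (HSPD1, STIP1, FKBP4 and CDC37) fall left of the dotted line.

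The authors' deposited table carries 0 columns of per-sample values, so neither each library's level nor its depth is known here. Group levels were instead implied from the mean normalized count over all libraries and the fold change, giving 3 libraries of each group equal weight. Positive fold changes carry the authors' mark for upward change and are read as higher in shikonin. The scaling between groups bears on the smaller rises. When the implied totals of the listed genes were set equal, every log2 fold change dropped by 0.39, and 6 of the 10 genes stayed past 1.5-fold, where 16.8% of all genes tested did. Those that did not were HSPD1, STIP1, FKBP4 and CDC37, at log2 fold changes of 0.54, 0.51, 0.42 and 0.26 after that shift of the values per the authors' deposited table. In bulk libraries, more RNA per cell and a change in which cells contribute cannot be told apart.

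Promoter sequences were read for 9 of the 10 genes from RefSeq (GRCh38.p14), as 15 windows of 250 bases before to 50 after each start site, since most of these genes are textbook HSF1 targets. FKBP4 had no entry. The heat shock element was searched as 3 alternating units, the letters TTC, NN, GAA, NN and TTC in a row on either strand, and as the 2-unit forms GAA, NN, TTC and TTC, NN, GAA, which lie within it. The 3-unit letters stood in windows of 4 of the 9 genes, HSP90AA1, HSP90AB1, CHORDC1 and HSPD1, against 0.608% of all 27305 genes with a window. Counted by window, 4 of 15 held it, against 0.490% of all 35116 windows. The 2-unit letters stood in windows of 5 of the 9 genes, the same 4 and STIP1, against 16.2% of all genes. In the windows of AHSA1, CDC37, PTGES3 and HSPE1 none of these letters was found. The 250 bases before the start site are shown for the 4 windows with a 3-unit match, 5′ to 3′ on the gene's strand, because they show how differently the element is placed in each gene; capitals mark the 3-unit matches.
HSP90AA1 (chr14:102087045-102087294, minus strand): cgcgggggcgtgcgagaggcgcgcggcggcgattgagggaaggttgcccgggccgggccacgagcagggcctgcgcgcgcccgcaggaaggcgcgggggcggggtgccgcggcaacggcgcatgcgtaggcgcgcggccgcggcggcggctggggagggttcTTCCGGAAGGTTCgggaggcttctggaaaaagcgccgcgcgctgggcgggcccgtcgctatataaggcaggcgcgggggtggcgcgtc
HSP90AB1 (chr6:44247693-44247942, plus strand): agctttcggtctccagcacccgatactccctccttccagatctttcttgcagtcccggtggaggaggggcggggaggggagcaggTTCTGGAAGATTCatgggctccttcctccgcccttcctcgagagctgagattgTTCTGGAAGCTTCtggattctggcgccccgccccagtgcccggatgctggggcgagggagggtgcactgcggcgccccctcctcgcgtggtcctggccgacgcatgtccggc
CHORDC1 (chr11:90223050-90223299, minus strand): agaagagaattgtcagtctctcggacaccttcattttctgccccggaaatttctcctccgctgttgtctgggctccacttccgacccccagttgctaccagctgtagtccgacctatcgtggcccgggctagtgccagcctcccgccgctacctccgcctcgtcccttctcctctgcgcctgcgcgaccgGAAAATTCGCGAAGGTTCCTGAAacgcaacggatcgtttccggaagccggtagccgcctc
HSPD1 (chr2:197499841-197500090, minus strand): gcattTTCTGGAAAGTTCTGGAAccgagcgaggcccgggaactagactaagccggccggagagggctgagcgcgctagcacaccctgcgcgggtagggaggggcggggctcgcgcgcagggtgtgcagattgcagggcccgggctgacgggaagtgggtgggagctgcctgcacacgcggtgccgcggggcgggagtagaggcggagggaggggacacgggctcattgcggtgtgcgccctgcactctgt

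In HSP90AA1 the 13-base match ran from position -88 to -76 relative to the start site, with a separate 2-unit match from -68 to -61. HSP90AB1 had a pair of 3-unit matches, at -165 to -153 and at -112 to -100 relative to the third of its 3 start sites. These lie 677 and 730 bases after the second start site and so inside the gene for transcripts that begin there. The CHORDC1 match was the longest run, with 3 overlapping 3-unit matches from -60 to -38 relative to its start site. In HSPD1 the capitals cover 2 overlapping 3-unit matches (chr2:197500068-197500085). HSPD1 has an upper start site 434 bases further upstream, and the element lies inside the gene for transcripts that begin there. That upper site and the HSPE1 start site are 105 bases apart and point away from each other, and the same element lies 294 to 311 bases before the HSPE1 start site, outside the HSPE1 window that was searched. The log2 fold changes of the 4 genes with a 3-unit match, 0.94 to 1.28 per the authors' deposited table, lay within the range of AHSA1, CDC37, PTGES3, STIP1 and HSPE1, whose windows had none (0.66 to 2.71). A match of letters is a description of the sequence, and binding of HSF1 was not measured.

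**Figure D2:**
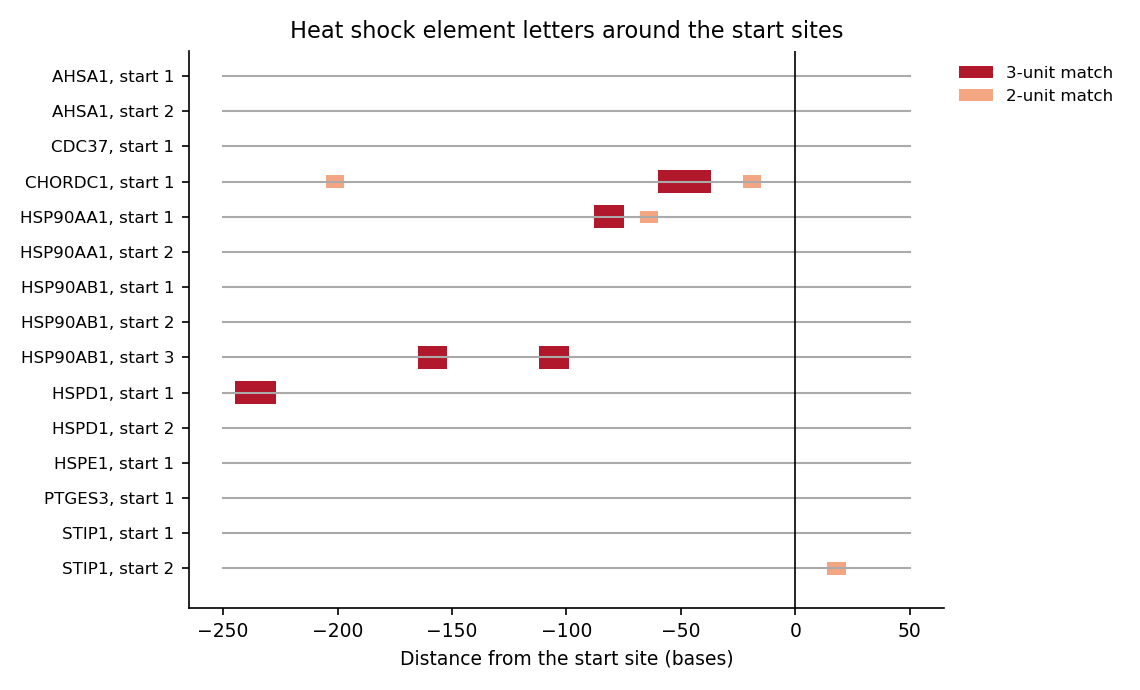
Positions of heat shock element letters in the 15 windows of 9 genes, by distance in bases from each start site (vertical line at 0). Wide red bars are 3-unit matches and narrow orange bars are 2-unit matches outside them; 4 windows hold a red bar, and windows of the other start sites of HSP90AA1, HSP90AB1 and HSPD1 hold none.

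The 2 cytosolic HSP90 genes had the highest implied levels of the group, per kilobase as well as in total, and both rose. HSP90AB1, the largely constitutive beta form (chromosome 6, 44246166 to 44253888, 12 exons), had an implied mean of 110479 normalized counts in shikonin and 45647 in control. It was 2.42-fold higher (95% interval 2.08 to 2.82, adjusted p = 5.23e-28) per the authors' deposited table. HSP90AA1, the stress-inducible alpha form (chromosome 14, 102080738 to 102139699, 11 exons), had implied means of 46063 in shikonin and 21446 in control. Its rise was 2.15-fold (1.80 to 2.56, adjusted p = 2.22e-16) per the authors' deposited table. The intervals of the beta and alpha forms overlapped, and the form known as inducible did not have the larger rise. Per kilobase of mature transcript, the implied level of the beta form exceeded that of the alpha form by 3.03 times in shikonin and 2.69 times in control. Together the 2 genes made up 72.4% of the summed implied counts of the 10 genes in shikonin and 69.8% in control. HSP90AA1 overlaps WDR20 on the other strand, and the sources used here do not say whether strand was kept. WDR20 was 1.60-fold lower (1.27 to 2.01) per the authors' deposited table, the opposite direction to HSP90AA1.

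Among the 6 cochaperone genes, AHSA1, CHORDC1 and PTGES3 had the larger rises. AHSA1 encodes the strongest known activator of HSP90's ATPase. Its implied means were 5054 normalized counts in shikonin and 1873 in control, a 2.70-fold rise (2.20 to 3.31, adjusted p = 2.92e-20) per the authors' deposited table. PTGES3, whose product binds the closed ATP-bound dimer and slows hydrolysis, stood at 14531 in shikonin and 6225 in control. That is 2.33-fold higher (2.00 to 2.72, adjusted p = 4.02e-26) per the authors' deposited table. CHORDC1 encodes morgana, a CHORD-domain cochaperone induced by heat, and its implied means were 1661 in shikonin and 695 in control. It was 2.39-fold higher (1.91 to 2.99, adjusted p = 2.28e-13) per the authors' deposited table. The intervals of AHSA1, PTGES3, CHORDC1 and both HSP90 genes overlapped one another.

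STIP1 links HSP70 to HSP90 by binding both, and rose 1.87-fold (1.53 to 2.28, adjusted p = 2.87e-09) per the authors' deposited table. Its implied means were 9574 normalized counts in shikonin and 5125 in control. FKBP4, an immunophilin cochaperone of steroid receptors, had 4044 in shikonin and 2299 in control, and was 1.76-fold higher (1.47 to 2.10, adjusted p = 2.7e-09) per the authors' deposited table. CDC37, which brings kinases to HSP90, had 9062 in shikonin and 5749.6 in control. It was 1.58-fold higher (1.31 to 1.90, adjusted p = 7.14e-06) per the authors' deposited table, and the 95% intervals of both CDC37 and FKBP4 reached below 1.5-fold. CDC37 overlaps PDE4A on the other strand, which was 2.53-fold lower (2.07 to 3.11) per the authors' deposited table.

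Taken pair by pair, 14 of the 45 pairs of the 10 genes had 95% fold intervals that did not overlap, and 9 of these 14 were HSPE1 against each other gene. Of the remaining 5, CDC37 was the lower gene in 4, against AHSA1, HSP90AB1, CHORDC1 and PTGES3, and FKBP4 was lower than AHSA1 in the last. All 10 values come from the same libraries, so the intervals are set side by side and no test between genes was made. Per kilobase of mature transcript, the order of implied cochaperone levels in shikonin, from the lowest, was CHORDC1 at 626, FKBP4 at 1084, AHSA1 at 3605, STIP1 at 4360, CDC37 at 5636 and PTGES3 at 7568. In control the order was the same up to STIP1 (CHORDC1 at 262, FKBP4 at 616, AHSA1 at 1336 and STIP1 at 2334 per kilobase), but CDC37 at 3576 stood above PTGES3 at 3242. The spread of these levels over libraries is not known, so neighbours in either order may not differ. Summed per kilobase, the 6 cochaperones reached 22878 in shikonin and 11365 in control, while the 2 HSP90 genes reached 54948 in shikonin and 23418 in control.

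**Figure D3:**
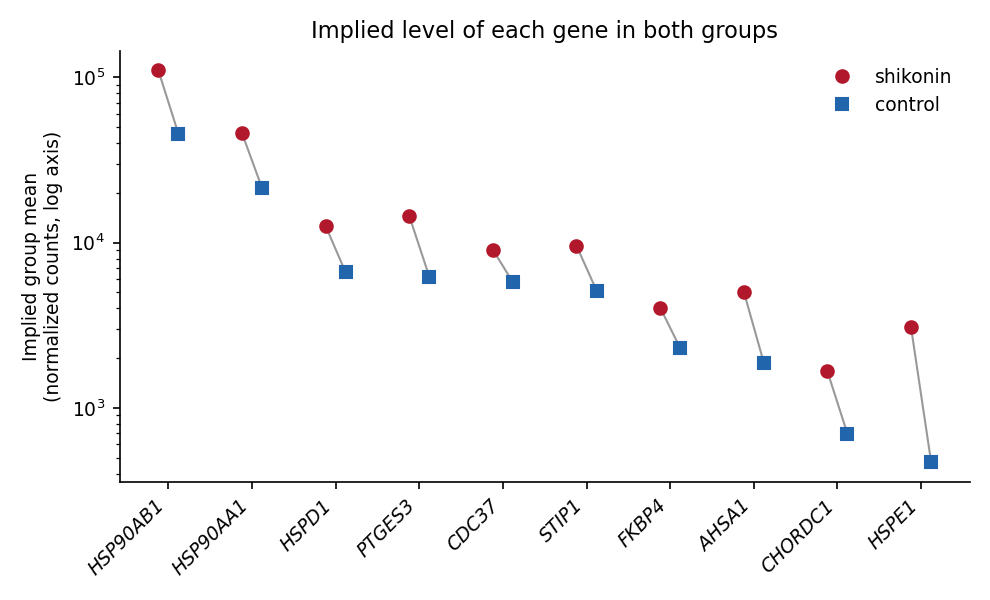
Implied mean normalized count of each gene (log axis) in shikonin (circles) and in control (squares), ordered by the control level; no error is drawn because per-library values are not held. HSP90AB1 leads in both groups, and HSPE1 has the steepest line, with 3068 in shikonin and 470.1 in control.

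The chaperonin pair moved unequally. HSPE1 (chromosome 2, 197499994 to 197503457, 4 exons) encodes the HSP10 lid and had an implied mean of 3068 normalized counts in shikonin and 470.1 in control. Its 6.53-fold rise (5.24 to 8.13, adjusted p = 5.27e-60) per the authors' deposited table ranked 33rd by p-value among all listed genes. Only 10.8% of the genes listed as higher had a larger fold change than HSPE1 per the authors' deposited table. HSPD1 (chromosome 2, 197486581 to 197516737, 12 exons) encodes the HSP60 barrel and had implied means of 12629.8 in shikonin and 6598 in control. It was 1.91-fold higher (1.62 to 2.26, adjusted p = 3.09e-13) per the authors' deposited table, an interval that lies wholly below that of its partner. Per kilobase, the implied level of HSPD1 exceeded that of HSPE1 by 1.59 times in shikonin and 5.43 times in control. Both genes have many near-identical processed copies, so their counts are uncertain: GENCODE 29 names 26 HSPE1 pseudogenes and 17 HSPD1 pseudogenes, none of which (0 of 43) was listed. For the other 8 genes it names between 0 and 5 pseudogenes each, and 0 of those were listed. HSPD1 and HSPE1 also overlap on opposite strands in the annotation, and the readthrough gene HSPE1-MOB4, which shares exons with HSPE1, was not listed.

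Transcript length ran with direction over the listed protein-coding genes, and it sets a different yardstick for each of the 10. Among the 692 genes of the shortest decile, which holds HSPE1 (950 nt), 97.7% were higher with a median log2 fold change of 1.48, and HSPE1 stood at percentile 89.3 of them per the authors' deposited table. Among the 692 genes of 3294 to 4180 nt, which hold HSP90AA1 (3379 nt) and FKBP4 (3732 nt), 32.1% were higher, and the 2 genes stood at percentiles 82.5 and 75.7. HSP90AB1 and CHORDC1 stood at 73.0 and 72.7 of the genes of 2505 to 3293 nt, of which 63.9% were higher. AHSA1 (1402 nt) and PTGES3 (1920 nt) stood at 72.0 and 64.7 of their deciles. STIP1 (2196 nt) and HSPD1 (2455 nt) were in the middle of theirs, at 48.0 and 50.6. CDC37 (1608 nt) was low for its length, at percentile 16.5 of genes with a median log2 fold change of 1.00 per the authors' deposited table. In all, 8 of the 10 genes stood above percentile 50, with a median of 72.3. These percentiles rank listed genes of both directions together, so part of each rank follows from direction alone. In a decile where 32.1% were higher, every higher gene stands above percentile 50, HSP90AA1 and FKBP4 among them. The part of length in the rise of any gene was not tested.

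**Figure D4:**
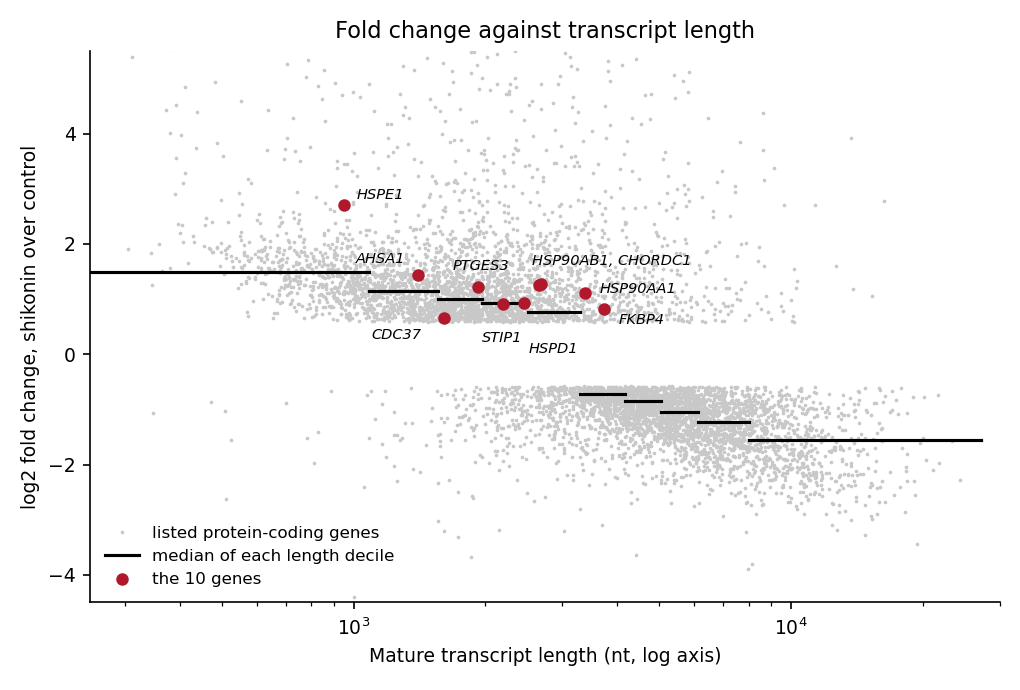
Log2 fold change, shikonin over control, against mature transcript length (log axis) for 6920 listed protein-coding genes (grey; 77 lie outside the axes), with the median of each length decile (black bars) and the 10 genes (red). HSPE1 lies well above the bar of the shortest decile, HSP90AA1 and FKBP4 lie above a decile whose median is -0.72, and CDC37 lies below its bar; the empty band around 0 holds genes under 1.5-fold, which the table leaves out.

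The rest of the HSP90 machinery was mixed. The paralogs of the endoplasmic reticulum and of mitochondria, HSP90B1 and TRAP1, were not listed. In this and later lists, a gene not listed may have missed a threshold or may not have been tested. Medians of lists cover listed genes only. Of 25 other cochaperone genes, 8 rose, 4 fell and 13 were not listed. Over all genes tested, 25.5% were listed as higher and 24.7% as lower. The 12 listed cochaperone genes had a median log2 fold change of 0.68 per the authors' deposited table. FKBP8, a membrane-bound immunophilin, rose 2.25-fold (1.81 to 2.80) per the authors' deposited table. STUB1, a ubiquitin ligase that takes clients to degradation, rose 1.54-fold (1.22 to 1.96) per the authors' deposited table. FKBP5, which is close in sequence to FKBP4 and opposes it at steroid receptors, was instead 1.90-fold lower (1.52 to 2.39) per the authors' deposited table. TSC1, SGTB and FNIP2 were the other 3 that fell, by 1.87-fold, 1.85-fold and 1.57-fold per the authors' deposited table. In the R2TP complex, which works with HSP90 to assemble other complexes, PIH1D1 rose 3.07-fold (2.44 to 3.87) and RUVBL2 2.31-fold (1.91 to 2.80) per the authors' deposited table, while RUVBL1 and RPAP3 were not listed.

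More transcripts of HSP90's clients fell than rose. Of 26 client kinase genes, 3 rose, 13 fell and 10 were not listed, with a median log2 fold change of -1.10 per the authors' deposited table. EGFR, CDK6 and PDPK1 had the largest changes, falling to levels 5.96-fold (4.73 to 7.52), 5.77-fold (4.58 to 7.26) and 4.40-fold (3.28 to 5.92) lower per the authors' deposited table. CDK4, AURKB and EIF2AK3 were the 3 that rose. Over all genes tested, 25.5% were listed as higher and 24.7% as lower, which is the background for these counts and for those of the receptors. Among 10 client transcription factors and receptors, 4 fell (NR3C1, STAT3, AHR and NR3C2), none rose (0 of 10) and 6 were not listed. NR3C1, the glucocorticoid receptor gene, was 2.14-fold lower (1.73 to 2.64) per the authors' deposited table, and AHR 1.99-fold lower (1.66 to 2.40). The median mature length of the listed client kinases was 4978 nt, against 2325.5 nt for the 10 chaperone genes, and within their length deciles these kinases stood at a median percentile of 37.4. The 4 listed factors and receptors had a median length of 6084.5 nt and stood at a median percentile of 63.4. RNA levels of clients do not measure the client proteins that HSP90 holds.

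The heat shock factor genes HSF1, HSF2 and HSF4 were not listed, and of 5 genes of factors and their binding partners only HSBP1, an HSF1-binding protein gene, was (2.07-fold higher, 1.71 to 2.51, per the authors' deposited table). Around HSP60 in the matrix, 5 of 19 chaperone and protease genes rose, 4 fell and 10 were not listed, shares near the 25.5% higher and 24.7% lower of all genes tested. HSPA9, the mitochondrial HSP70 that passes proteins to HSP60, rose 1.57-fold (1.34 to 1.83) and the protease subunit gene CLPP 2.21-fold (1.78 to 2.73) per the authors' deposited table. The AAA proteases AFG3L2 and SPG7, and CLPX, the partner of CLPP, were lower, by 1.88-fold, 1.70-fold and 1.73-fold per the authors' deposited table. In the cytosolic chaperonin TRiC, the counterpart of HSP60, 4 of 8 subunits rose, TCP1 by 2.31-fold (1.98 to 2.70) and CCT2, CCT8 and CCT7 by 1.61-fold, 1.56-fold and 1.51-fold per the authors' deposited table, and 4 were not listed. Its feeder prefoldin had 4 of 6 subunits higher, PFDN4 by 3.38-fold (2.70 to 4.23) per the authors' deposited table. Within their length deciles, the listed TRiC subunits stood at a median percentile of 27.2 and the listed prefoldin subunits at 53.5.

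The chaperones upstream of HSP90 spanned a wider range of fold changes than the 10 genes. Of 13 HSP70 and HSP110 genes, 7 rose, 3 fell and 3 were not listed, with a median log2 fold change of 1.71 per the authors' deposited table. The background for these counts and those of the next lists was 25.5% higher and 24.7% lower among all genes tested. HSPA6, an inducible HSP70, reached an implied mean of 145959 normalized counts in shikonin, against 24.0 in control. Of 19 HSP40 and small heat shock protein genes, 8 rose, 1 fell and 10 were not listed, with a median of 2.75 per the authors' deposited table. DNAJB1, an HSP40 that delivers clients to HSP70, was 27.4-fold higher (21.9 to 34.4) per the authors' deposited table. CRYAB had a log2 fold change of 10.47 with a standard error of 1.23 per the authors' deposited table, from an implied control mean of 0.161 counts, where a fold rests on almost no reads. Of the 8 exchange factors of HSP70, 3 rose, 1 fell and 4 were not listed, with a median of 0.87, below the 1.16 of the 10 genes, per the authors' deposited table. BAG3 and BAG1 rose 5.25-fold (4.28 to 6.43) and 2.14-fold (1.74 to 2.63) per the authors' deposited table, while BAG5 was 1.64-fold lower (1.34 to 2.00). The other exchange factor gene that rose, HSPBP1, was 1.57-fold higher (1.26 to 1.95) per the authors' deposited table. HSPBP1 is also counted among the 8 other HSP90 cochaperone genes that rose, so the 2 counts share a gene. These lists and the 10 genes come from the same 6 libraries, and no test between the lists was made.

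**Figure D5:**
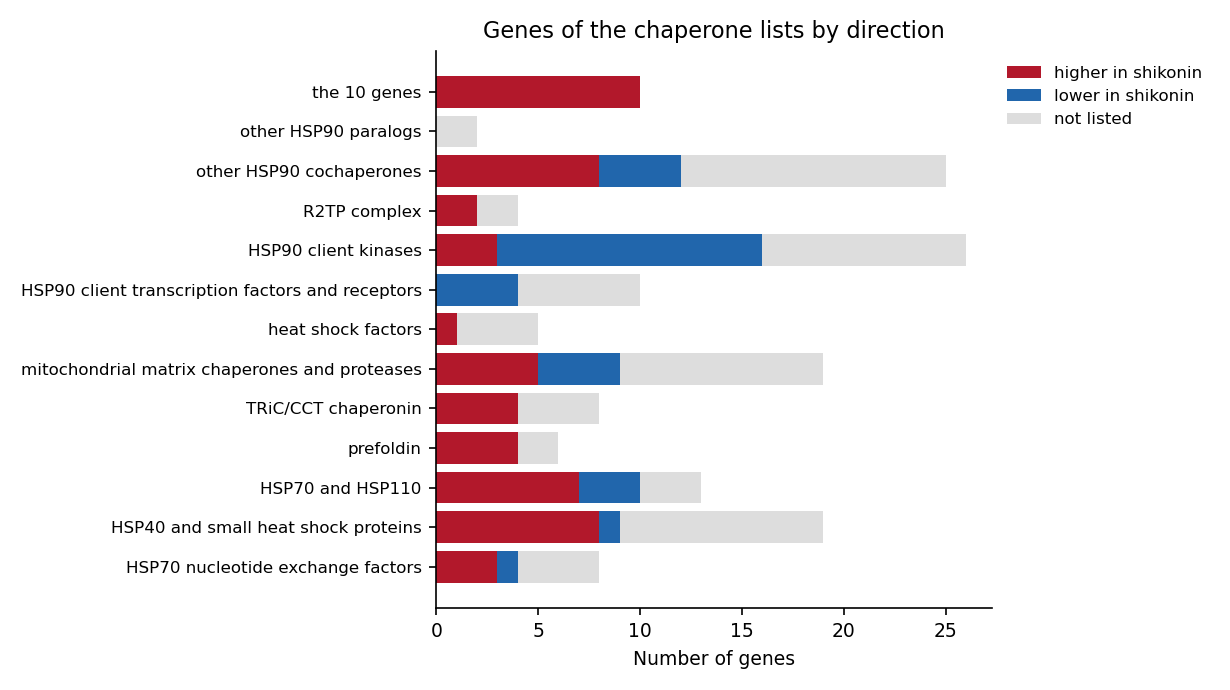
Number of genes of each chaperone list that were higher in shikonin (red), lower in shikonin (blue) or not listed (grey). All 10 genes described here are red, the other cochaperones split into 8 higher, 4 lower and 13 not listed, and the client kinases into 3 higher, 13 lower and 10 not listed.

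The 10 genes had a median mean count of 7378, against 591 over all listed genes, and their standard errors ran between 0.11 and 0.17 on the log2 scale, against a median of 0.19 over all listed genes per the authors' deposited table. VIM, the vimentin gene that marks the mesenchymal state of this cell line, was listed with a mean of 64429 normalized counts per the authors' deposited table, while CD44 and AXL were not listed. Of 8 luminal marker genes, 4 were higher (KRT8, KRT18, EPCAM and FOXA1) and 4 were not listed, ESR1 among them. Of 6 leukocyte marker genes, 3 were higher (CD14, CD68 and LYZ), while the defining PTPRC and CD3E were not listed. FOXA1 and LYZ rest on few reads, with mean normalized counts of 35.4 and 20.1 per the authors' deposited table. Of 6 fibroblast marker genes, PDGFRB was higher and 5 were not listed. Among all genes tested, 25.5% were listed as higher and 24.7% as lower, which is the background for these marker counts. The part of such markers in the rise of the 10 genes was not tested.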

How the data were processed

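Libraries of MDA-MB-231 cells, 3 given shikonin and 3 untreated, were made with a NEBNext Ultra kit according to the labels. Tools named by the submitters' processing notes are HISAT2 2.0.5, fastp and DESeq2, with hg38 as build. No source used here states the read counter, annotation or strand setting.

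The deposited table holds 1 comparison. Per the file headers, its mean is a signal, the authors' normalized count averaged over libraries. Also deposited are the log2 fold change, its standard error, the Wald score, the p-value and the adjusted p-value. The file has 0 columns of per-sample values, so no count model was fitted. The 10 genes and all lists were chosen with earlier results of these data known.

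Computed here were 95% normal intervals from the standard error, implied group means, the implied number of genes tested, percentiles of fold change within deciles of mature transcript length (GENCODE 29 principal transcripts, GRCh38, 7142 of 7150 genes matched) and motif matches, with Python 3.11.15, pandas 2.3.3 and numpy 2.4.6. The implied means, the number of genes tested, the decile split and the motif search were tested on simulated data. The percentile step was checked on fixed numbers, and the intervals and transcript lengths were not checked in this way. All 10 genes, and listed genes of the wider HSP90, R2TP, heat shock factor, mitochondrial, TRiC and prefoldin lists, could be named; of the client, HSP70, HSP40 and exchange factor lists, the 3 with the largest change. Which marker genes are named, and CDK4, AURKB, EIF2AK3, NR3C2, and the overlapping genes WDR20 and PDE4A were chosen after their values were seen. Alternatives were equal implied totals, an adjusted p below 0.001, at least 2-fold, a mean of at least 100, another transcript length, and motifs only before the start. Some genes of the lists are counted but not reported here by name.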

Additional observations from a re-analysis of the deposited data

How the results depend on the processing

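With equal implied totals 6 of the 10 genes stayed past 1.5-fold. So did 6 of the 10 higher genes among the other paralogs, cochaperones and R2TP subunits. Of all genes tested, 16.8% were higher past that cut. The median log2 fold change of the 10 genes was then 0.77. The shift by itself takes genes with small rises under the threshold, and p-values were not recomputed. At least 2-fold rises were met by 6 of the 10 genes and by 6 of the other machinery, where 16.4% of all genes tested rose that far. Of the 4 lower genes of that machinery, 0 were at least 2-fold lower. The 2-fold cut and the equal-totals cut lie close together and kept the same 6 of the 10 genes, so they are not separate checks. With an adjusted p below 0.001 or a mean of at least 100 normalized counts, all 10 genes were still higher. Neither setting could remove any of them. Their highest adjusted p in the authors' DESeq2 test was 7.14e-06 and their lowest mean count was 1178. The median percentile within length deciles was 73.3 with the transcript of the longest coding sequence and 81.1 when genes under a mean of 100 were left out. Restricting the motif search to bases before the start left 4 genes with a 3-unit match. No paired analysis was possible because the table holds no per-sample values, and leaving out each library in turn was not run for the same reason. Depth per library is unknown, so the spread between libraries is seen here solely through the authors' standard errors.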
